A study of Mus musculus with 6 samples.

Results

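The genes described here are 10 members of the fibroblast growth factor (FGF) pathway, taken from the deposited table by symbol: the receptors Fgfr1, Fgfr2 and Fgfr3, the ligand Fgf15, and the response genes Etv4, Etv5, Spry1, Spry2, Spry4 and Dusp6. The table lists 21286 genes, all 10 members were found in it, and all 10 passed the filter on low counts, as did 15326 genes in all. Transcripts were measured by RNA-seq in the lateral ganglionic eminence (LGE) at embryonic day 16.5, in mice on a mixed background of C57BL/6J, 129S6 and CD1. The LGE is the ventral forebrain region that makes striatal projection neurons and olfactory bulb interneurons. The groups were 3 libraries of wild type littermates and 3 of Dlx1/2 -/- mutants, which lack both of these homeobox transcription factors. Neither the parts of the genes removed by the alleles nor a separate embryo for each library is stated, so each p-value rests on a spread between libraries that may be technical.

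FGFs bind receptor tyrosine kinases at the cell surface, with heparan sulfate chains as coreceptors, and the receptors drive the Ras and ERK kinase cascade. ERK signalling switches on the ETS transcription factor genes Etv4 and Etv5 and a set of brakes on the same cascade. Among these brakes, Sprouty proteins (Spry1, Spry2, Spry4) act between the receptor and the kinases, and Dusp6 is a phosphatase that inactivates ERK itself. Because these genes follow the signal, their transcripts are widely used as a readout of FGF and ERK activity. In the embryonic forebrain the receptors are made mainly by dividing radial glia, which are the neural progenitors, and later by astrocytes.

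Library totals ran from 10711630 to 16588359 counts, with the smallest in wild type replicate 1. Dlx2 fell from 436.3 ± 29.8 to 16.8 ± 1.68 CPM (counts scaled to library size, mean ± SD, n = 3 each) and Dlx1 from 857.9 ± 35.7 to 122.1 ± 14.4 CPM, so the labels match the targeted genes. Of the 12 LGE markers listed, 10 fell and 1 rose, so 91.7% passed the test described below, against 24.0% of all genes tested. The summed level of the 12 markers was 3390 to 3597 CPM in wild type and 1288 to 1421 CPM in the mutant libraries. In bulk tissue, fewer cells of a type and less RNA per cell cannot be told apart.

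Of the 10 members, 3 rose and 3 fell in the mutant by edgeR's quasi-likelihood test, at an adjusted p (Benjamini-Hochberg) below 0.05 over all genes tested. The background was high: 24.0% of all genes passed in either direction, 11.2% higher and 12.8% lower. The receptors Fgfr2 and Fgfr3 and the brake Spry2 rose, while Etv4, Spry4 and Dusp6 fell. The largest of these changes was 1.58-fold, in Spry4. The groups did not overlap for 6 of the 10 members, against 41.9% of all genes tested. The median log2 fold change was 0.09 for the members and 0.0028 for all genes tested. Fgfr2 and Dusp6 passed in all 10 other fits tried, whereas the calls of Fgfr3, Spry2, Spry4 and Etv4 were lost in some of the fits that left out a library.

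To show the starts of genes that moved in each direction, the promoter windows of Fgfr2, Spry2 and Dusp6 (250 bases before to 50 after the start, RefSeq, GRCm38.p6) are printed 5′ to 3′ on the strand of the gene. They lie at chr7:130266759-130267058 on the minus strand, chr14:105896770-105897069 on the minus strand and chr10:99262981-99263280 on the plus strand. Capitals mark GGAA, the core that ETS factors such as Etv4 and Etv5 bind, read on either strand (as TTCC on the other).
Fgfr2: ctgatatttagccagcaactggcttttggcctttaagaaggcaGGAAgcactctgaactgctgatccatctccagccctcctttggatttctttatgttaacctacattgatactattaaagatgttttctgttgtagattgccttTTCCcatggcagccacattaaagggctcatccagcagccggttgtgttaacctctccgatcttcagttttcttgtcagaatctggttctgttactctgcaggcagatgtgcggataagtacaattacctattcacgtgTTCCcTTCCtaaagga
Spry2: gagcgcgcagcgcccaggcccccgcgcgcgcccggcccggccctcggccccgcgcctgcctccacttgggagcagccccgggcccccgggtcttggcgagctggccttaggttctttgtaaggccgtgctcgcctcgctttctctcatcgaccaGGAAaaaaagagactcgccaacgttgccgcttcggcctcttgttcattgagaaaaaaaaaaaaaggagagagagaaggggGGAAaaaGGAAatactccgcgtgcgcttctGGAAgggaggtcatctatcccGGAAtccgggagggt
Dusp6: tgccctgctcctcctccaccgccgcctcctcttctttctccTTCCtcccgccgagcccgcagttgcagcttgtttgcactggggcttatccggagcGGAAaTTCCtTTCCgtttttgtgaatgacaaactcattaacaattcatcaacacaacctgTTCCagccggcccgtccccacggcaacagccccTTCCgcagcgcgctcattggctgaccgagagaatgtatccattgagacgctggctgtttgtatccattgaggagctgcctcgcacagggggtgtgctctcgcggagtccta
The core occurred 4 times in the Fgfr2 window, 5 times in that of Spry2 and 6 times in that of Dusp6. At least 1 match is in 96.0% of the 32851 promoter windows, with a median of 3 matches, so the presence of the core sets no member apart. The longer ETS form CCGGAA, searched on both strands and containing GGAA, was in 14.9% of all windows and, among the 8 windows of 6 members in the table, in that of Spry2 alone. The homeodomain core TAATTA was in 5.29% of all windows and in none of those 8. The Fgfr2 window held 4 CpG pairs, those of Spry2 and Dusp6 28 and 19, and the median window 7. Fgfr1, Fgf15, Etv4 and Spry4 were not matched.

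**Figure D1:**
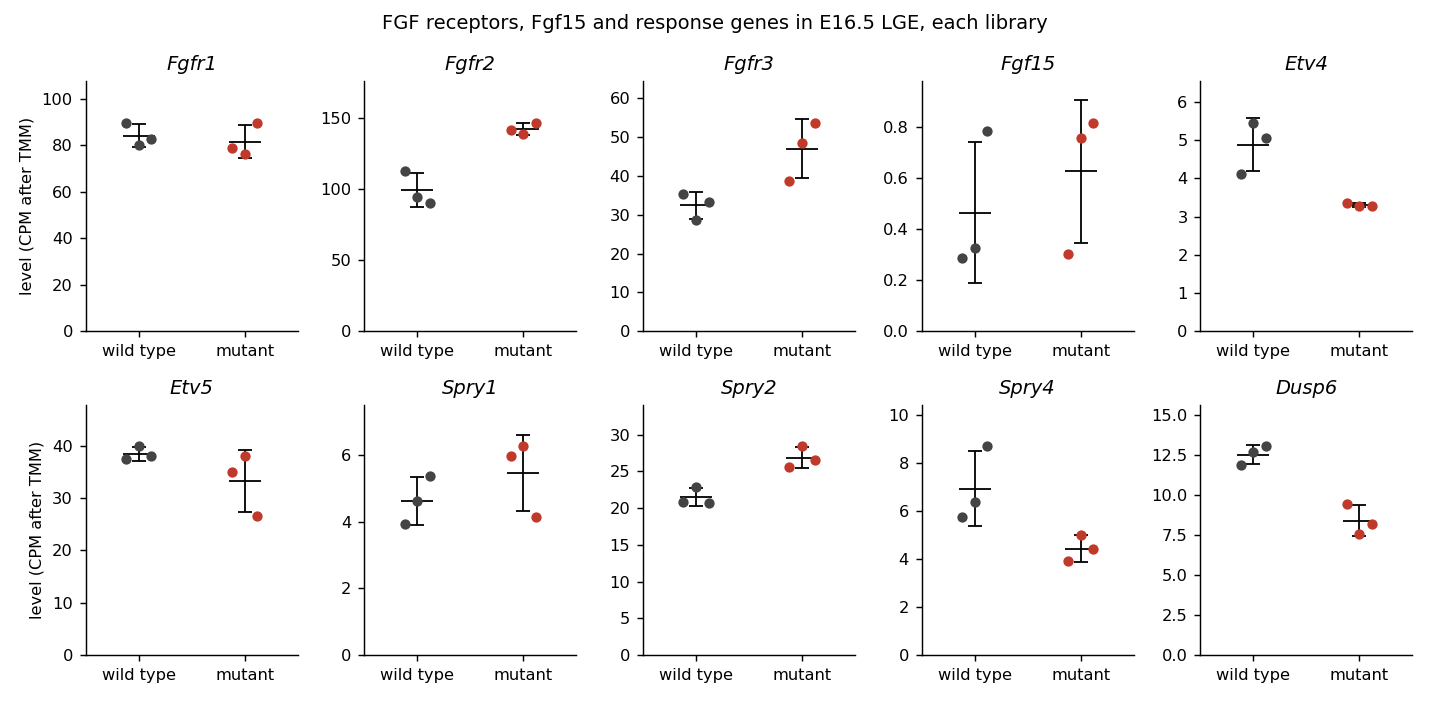
Level of each of the 10 genes in CPM after TMM scaling (linear axis from 0). Points are libraries, the bar and whiskers are mean ± SD, n = 3 per group; Fgfr2 is at 90.0 to 112.6 CPM in wild type and 138.5 to 146.4 CPM in the mutant.

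Fgfr2 encodes the receptor with the highest count. It was at 112.6, 94.2 and 90.0 CPM in wild type replicates 1 to 3 and at 141.3, 138.5 and 146.4 CPM in mutant replicates 1 to 3. Every mutant library lay above every wild type library. The log2 fold change was 0.52 ± 0.10 (SE), or 1.44-fold, with edgeR adjusted p = 0.00314. The gene (ENSMUSG00000030849, chromosome 7, 130162451 to 133123350, minus strand in GENCODE M21) has 27 annotated transcripts, and 3.04% of its exon bases are shared with Ctbp2 on the same strand. The promoter window printed above lies at a RefSeq start inside this span, not at its 5′ end at 133123350. Counts per gene do not separate the epithelial and mesenchymal splice forms, which bind different ligands.

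Fgfr3, a receptor of progenitors and of the astrocyte lineage, was lower in level and rose by a like amount. Its 3 wild type libraries held 35.3, 28.7 and 33.4 CPM and its mutant libraries 38.8, 48.5 and 53.7 CPM. The groups did not overlap, and mutant replicate 1 stood closest to wild type. The log2 fold change was 0.54 ± 0.16, with edgeR adjusted p = 0.0204. The adjusted p rose to between 0.0503 and 0.0708 when wild type replicate 2 or 3, or mutant replicate 2 or 3, was left out. A gene model awaiting experimental support on the opposite strand (G630022F23Rik) shares 13.9% of the exon bases of Fgfr3 (ENSMUSG00000054252, chromosome 5, 33721674 to 33737068, plus strand). No label states a strand setting for the counting, so reads of the 2 genes may not be told apart.

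Fgfr1, the receptor that FGF2 and FGF8 use in telencephalic progenitors, did not pass the test. It was at 89.6, 80.1 and 82.9 CPM in wild type and at 78.9, 76.3 and 89.8 CPM in the mutant, so the groups overlapped. The log2 fold change was −0.04 ± 0.09 (edgeR adjusted p = 0.735), and limma's 95% interval of −0.23 to 0.13 does not reach the size of the rise in Fgfr2. The gene is ENSMUSG00000031565 on chromosome 8, 25513654 to 25575718, plus strand.

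The difference between the receptors was then measured within each library. The log2 ratio of Fgfr1 to Fgfr2 was 0.57 ± 0.08 (SE) lower in the mutant, at −0.80 against −0.23 in wild type, and that of Fgfr1 to Fgfr3 was 0.57 ± 0.12 lower. The ratio of Fgfr2 to Fgfr3 was 1.61 in both groups. For the first pair and for Fgfr1 against Fgfr3 the groups did not overlap. The exact two-sided permutation test gave p = 0.1 for each of these pairs, the smallest value that 3 against 3 libraries allow. Its adjusted p was 0.175 over the 7 pairs compared within families. The share of all gene pairs with groups apart was not computed. As a share of the summed FPKM of the 3 receptors, Fgfr1 was at 32.6% ± 1.16 in wild type and 24.5% ± 0.90 in the mutant, and Fgfr2 at 51.1% ± 2.00 and 57.3% ± 2.14 (mean ± SD, n = 3, groups apart for both). Their summed level was 13.6 to 15.6 FPKM in wild type and 18.1 to 19.9 FPKM in the mutant libraries. These shares and sums depend on the gene lengths behind the FPKM, which are described below.

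Fgf15, the mouse counterpart of human FGF19, is a ligand made by progenitors of the embryonic brain and, after birth, a hormone of the gut. In these LGE libraries it was close to the limit of detection. It had 3, 5 and 13 reads in wild type and 5, 12 and 13 in the mutant libraries, where 3 reads correspond to 0.181 to 0.287 CPM. The groups overlapped, and wild type replicate 3 was as high as mutant replicate 3 in reads. The ratio of mutant to wild type was 1.26 with a 95% Clopper-Pearson interval of 0.697 to 2.31, which covers counting error only, and edgeR's adjusted p was 0.678. No change of Fgf15 was detected, and so few reads cannot show a small change. The antisense gene Gm26793 shares 24.9% of the exon bases of Fgf15 (ENSMUSG00000031073, chromosome 7, 144896531 to 144900953, plus strand).

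Dusp6 showed the most stable fall among the response genes. It was at 11.9, 12.7 and 13.04 CPM in wild type and at 9.45, 7.53 and 8.18 CPM in the mutant. All mutant libraries were below all wild type libraries. The log2 fold change was −0.58 ± 0.10, a fall of 1.5-fold, with edgeR adjusted p = 0.00904. The gene is ENSMUSG00000019960 on chromosome 10, 99263231 to 99267489, plus strand. Its promoter window, printed above, held more GGAA cores than the median window, as did those of Fgfr2 and Spry2, which rose.

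The Sprouty genes did not move together. Spry2 rose, from 20.9, 22.9 and 20.6 CPM in wild type to 25.6, 28.4 and 26.5 CPM in the mutant. The groups were apart, and the log2 fold change of 0.32 ± 0.06 had edgeR adjusted p = 0.0269. Its adjusted p was 0.0615 to 0.101 without wild type replicate 1 or 3 or mutant replicate 2 or 3. Spry2 is ENSMUSG00000022114 on chromosome 14, 105891947 to 105896819, minus strand.

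Spry4 fell, from 5.74, 6.37 and 8.69 CPM in wild type to 3.90, 4.999 and 4.4 CPM in the mutant. The groups were apart, though wild type replicate 3 stood well above its fellows. The log2 fold change was −0.66 ± 0.21 with edgeR adjusted p = 0.0437, and −0.45 with adjusted p = 0.133 without wild type replicate 3. Leaving out wild type replicate 2 or any 1 of the mutant libraries also ended the call, with adjusted p from 0.0633 to 0.129. Spry1 was at 3.92, 4.61 and 5.37 CPM in wild type and at 5.97, 6.26 and 4.15 CPM in the mutant. Its groups overlapped through mutant replicate 3, and its log2 fold change of 0.22 ± 0.23 did not pass (edgeR adjusted p = 0.479; limma's 95% interval −0.25 to 0.70).

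Within a library, the log2 ratio of Spry2 to Spry4 was 1.65 in wild type and 2.60 in the mutant, a difference of 0.95 ± 0.21 (SE), and that of Spry1 to Spry4 was 0.85 ± 0.21 higher in the mutant. The groups did not overlap for either pair, with p = 0.1 in the exact two-sided permutation test, the smallest possible, and adjusted p = 0.175. The share of all gene pairs with groups apart was not computed. The ratio of Spry1 to Spry2 changed by −0.10 ± 0.23, and its groups overlapped (exact permutation p = 0.7). The gene model of Spry1 (ENSMUSG00000037211, chromosome 3, 37639947 to 37644598, plus strand) shares 24.4% of its exon bases with Gm42922, a model of the same kind on the other strand.

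Etv4 and Etv5 encode ETS factors of the PEA3 group. Etv4 was at 4.11, 5.46 and 5.07 CPM in wild type and at 3.35, 3.29 and 3.27 CPM in the mutant, so the groups were apart. Its log2 fold change of −0.57 ± 0.12 passed narrowly (edgeR adjusted p = 0.0394), and DESeq2 gave adjusted p = 0.113. The call was also lost without wild type replicate 2 or 3 or any 1 of the mutant libraries, with adjusted p from 0.0943 to 0.134. Etv5 was far more abundant, at 37.4, 39.8 and 38.0 CPM in wild type and 34.9, 38.0 and 26.5 CPM in the mutant. Mutant replicate 3 was the lowest, and mutant replicate 2 fell within the wild type range. The log2 fold change of Etv5 was −0.21 ± 0.16 and did not pass (edgeR adjusted p = 0.269; limma's 95% interval −0.52 to 0.07). The log2 ratio of Etv4 to Etv5 was 0.32 ± 0.18 lower in the mutant with overlapping groups (exact permutation p = 0.2), so a difference in response between the 2 genes was not shown. Etv4 is ENSMUSG00000017724 on chromosome 11, 101769742 to 101785371, minus strand, and Etv5 is ENSMUSG00000013089 on chromosome 16, 22381309 to 22439719, minus strand.

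**Figure D2:**
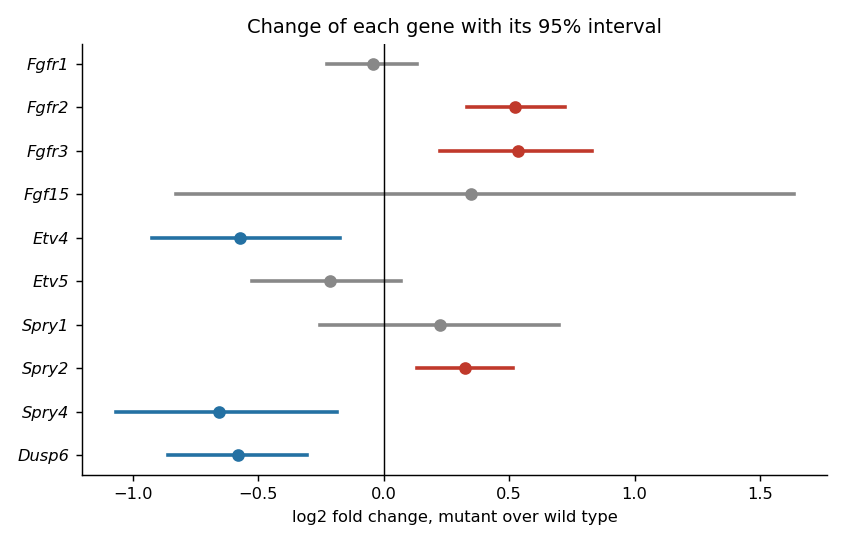
Log2 fold change of the mutant over wild type (points, edgeR) with limma's 95% interval (lines) for the 10 genes, n = 3 per group. Red marks genes that rose, blue genes that fell and grey those that did not pass; the changes run from −0.66 for Spry4 to 0.54 for Fgfr3.

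In the authors' deposited table, p was below 0.05 for 6 members, and all 6 are those called here. Both sets of values come from the same libraries, so the match is no independent support. The share of all genes below 0.05 in the authors' column was not computed. There, p was 2.66e-05 for Fgfr2, 0.000526 for Dusp6, 0.00306 for Spry4, 0.00828 for Etv4 and 0.148 for Etv5. The authors' table does not say how these values were tested or adjusted.

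The order of the levels was read per length. On the deposited FPKM (fragments scaled to gene length and library size), Spry2 led in wild type at 10.2 ± 0.65, followed by Fgfr2 at 7.34 ± 0.79, Etv5 at 5.36 ± 0.23, Fgfr1 at 4.67 ± 0.21 and Dusp6 at 4.44 ± 0.27 (mean ± SD, n = 3). Next came Fgfr3 at 2.33 ± 0.23, Spry4 at 1.4996 ± 0.35, Spry1 at 1.38 ± 0.23, Etv4 at 0.795 ± 0.122 and Fgf15 at 0.256 ± 0.154 FPKM. Among neighbours in this order, Fgfr1 and Dusp6 overlapped, as did Spry4 and Spry1. In the mutant, Spry2 at 12.97 ± 0.68 and Fgfr2 at 10.7 ± 0.25 FPKM still led. Fgfr3 at 3.43 ± 0.53 there stood above Dusp6 at 3.02 ± 0.36 with overlapping libraries, and Spry1 at 1.65 ± 0.35 stood above Spry4 at 0.974 ± 0.119 FPKM, with libraries apart.

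This order depends on the gene length behind the FPKM. The length that the deposited counts and FPKM imply was 2085 bases for Spry2 and 2796 bases for Dusp6, against longest GENCODE M21 transcripts of 2087 and 2796 bases. For Fgfr1, Fgfr2 and Fgfr3 it was 17862, 13339 and 13794 bases, or 3.54, 3.01 and 3.25 times the longest transcript, and also above the length of all their exons joined. Scaled to the longest transcript, the wild type order was Fgfr2 at 22.3 ± 2.71 CPM per kilobase, Fgfr1 at 16.7 ± 0.97, Spry2 at 10.3 ± 0.59, Etv5 at 9.66 ± 0.32, Fgfr3 at 7.64 ± 0.81 and Dusp6 at 4.48 ± 0.21 CPM per kilobase. The fold change of a single gene does not depend on this length, which is the same in all libraries. The receptor shares and the summed receptor FPKM given above combine genes of different lengths, so they do depend on it.

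**Figure D3:**
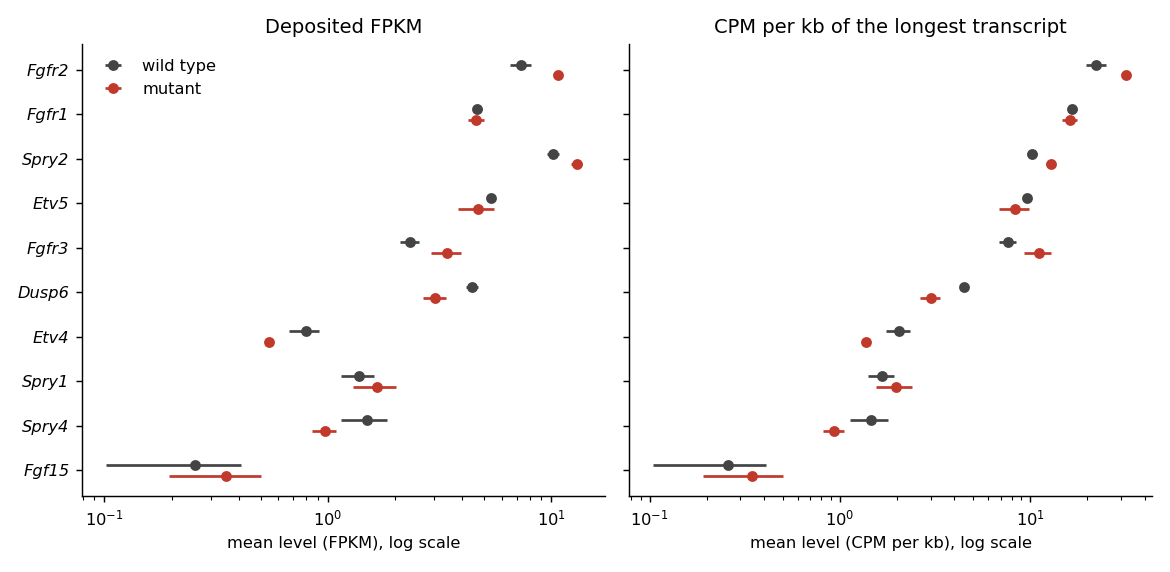
Mean level ± SD (n = 3) of each gene on log axes, as deposited FPKM (left) and as CPM per kilobase of the longest GENCODE M21 transcript (right), wild type in grey and mutant in red. Spry2 leads on the left at 10.2 FPKM in wild type, and Fgfr2 leads on the right at 22.3 CPM per kilobase.

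The receptors and response genes were next set against radial glia markers, which were themselves higher in the mutant. Of 14 listed radial glia markers, 13 were tested and 8 rose, among them the Notch target Hes5. None fell, so 61.5% were called, against 24.0% of all genes tested. The summed level of the listed markers was 2700 to 3064 CPM in wild type and 3966 to 4058 CPM in the mutant. None of the 14 was at 0 in all libraries. Relative to the geometric mean of the 13 markers in the same library, Fgfr2 and Fgfr3 differed between the genotypes by only −0.006 and −0.007 on the log2 scale, with overlapping groups (exact permutation p = 0.9 for each). For both genes this difference was smaller than the SD within each group. The geometric mean of the 13 markers was itself 124 to 143 CPM in wild type and 189 to 197 CPM in the mutant libraries. A gene with the same CPM in both groups is therefore lower in the mutant on this scale, as was Fgfr1. On this scale Spry4, Dusp6 and Etv4 were lower in the mutant by 1.16, 1.12 and 1.08, and Etv5 and Fgfr1 by 0.76 and 0.58. The groups did not overlap for these 5 genes, nor for Spry2, which was lower by 0.21 here although its CPM was higher. The share of all genes with groups apart on this scale was not computed. For each of these 6 genes the exact two-sided permutation test gave p = 0.1, the smallest possible, or adjusted p = 0.167 over the 10 members. Spry1 and Fgf15 differed by −0.31 and −0.13 with overlapping groups.

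**Figure D4:**
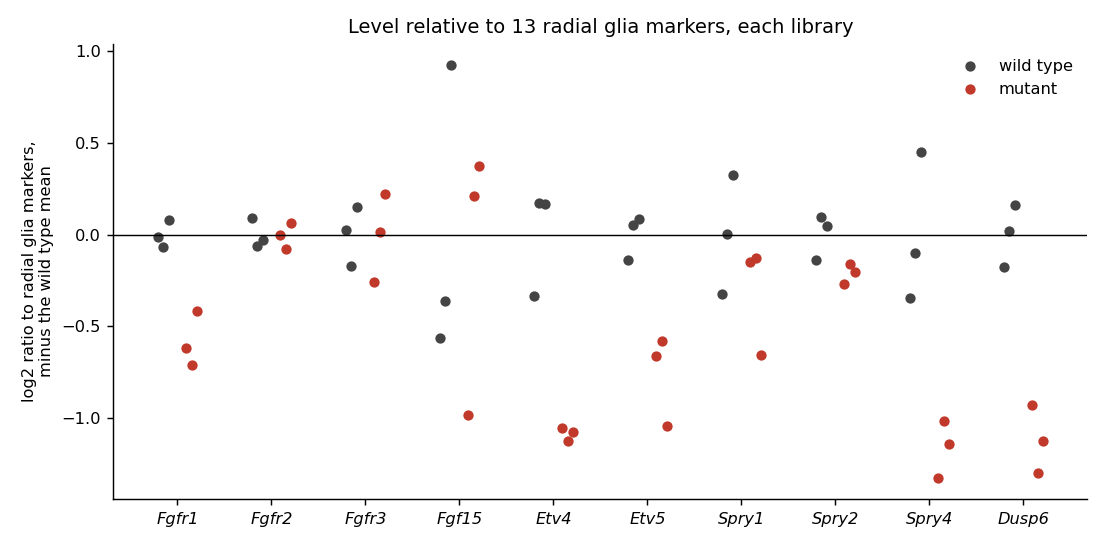
Log2 ratio of each gene's CPM to the geometric mean CPM of 13 radial glia markers, minus the wild type mean of that gene. Points are libraries (grey wild type, red mutant, 3 each); Fgfr2 and Fgfr3 lie around 0 in both groups, and the mutant libraries of Etv4, Spry4 and Dusp6 lie about 1 below.

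The differences depended on the reference genes. Against 8 proliferation genes, of which 1 rose and whose summed level was 1476 to 1944 CPM in wild type and 1690 to 1839 CPM in the mutant, Fgfr2 and Fgfr3 were higher by 0.40 each and Spry2 by 0.20. Dusp6, Spry4 and Etv4 remained lower, by 0.71, 0.75 and 0.67. Markers of other cell types that carry FGF receptors moved less evenly. Of 7 oligodendrocyte precursor markers 3 rose (87.3 to 127.5 CPM summed in wild type, 139.7 to 157.8 CPM in the mutant), and of 7 tested astrocyte markers 2 rose and 1 fell (374 to 390 and 372 to 431 CPM). Of 8 endothelial markers 1 fell (163 to 182 and 157 to 163 CPM). Of 2 tested choroid plexus markers 2 rose (5.91 to 8.93 and 29.4 to 35.7 CPM), as did Otp, the 1 hypothalamic marker tested (0.390 to 1.27 and 420.7 to 481.8 CPM over that list). Pallial markers were split (28.0 to 75.5 and 93.3 to 147.6 CPM summed, median log2 fold change −0.89 over 5 tested). Neurod2 and Neurod6 rose, while Eomes, Tbr1 and Neurog2 had log2 fold changes of −1.005, −0.89 and −1.23 and did not pass. Of 6 markers of the medial ganglionic eminence 1 rose and 2 fell. Against 24.0% of all genes, the share called was 42.9% each for oligodendrocyte precursor and astrocyte markers and 12.5% each for endothelial and proliferation markers. It was 40% for pallial, 50% for medial ganglionic eminence and 100% for choroid plexus and hypothalamic markers. These lists are short, so the shares are descriptions only. No marker found was at 0 in all libraries, and the part of these cell types in the changes of the members was not tested.

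The rest of the pathway was read from 8 lists with 103 genes, of which 98 were found and 86 tested. In all, 11 rose and 22 fell, 38.4% against 24.0% of all genes, with a median log2 fold change of −0.03. Among secreted ligands, which activate the receptors, 6 of 17 were abundant enough to test. Of these 2 rose and 1 fell, 50% called against the same 24.0%. Fgf3 had the largest change of any ligand, from 7.17, 6.11 and 5.97 CPM in wild type to 0.305, 0.506 and 0.503 CPM in the mutant. All mutant libraries were far below wild type (log2 fold change −3.85 ± 0.24, 14.4-fold lower, edgeR adjusted p = 1.97e-05). Fgf9 and Fgf2, ligands of neural progenitors, were rarer. Fgf9 rose from 1.27 ± 0.11 to 2.72 ± 0.62 CPM (edgeR adjusted p = 0.0156) and Fgf2 from 2.15 ± 0.33 to 3.63 ± 0.59 CPM (adjusted p = 0.0390). Fgf9 lost the call without wild type replicate 2 or mutant replicate 1 or 2 (adjusted p up to 0.0604), and Fgf2 without wild type replicate 1 or 2 or mutant replicate 1 or 2 and under DESeq2 (up to 0.122). Fgf17, Fgf7 and Fgf1, at 0.456 to 1.13 CPM in wild type, did not pass.

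Among partners of the receptors at the membrane, the change of Flrt2 was the largest. Flrt2, a transmembrane protein that binds FGF receptors and guidance receptors, fell from 382, 314 and 303 CPM to 89.2, 77.7 and 73.3 CPM (log2 fold change −2.06 ± 0.13, edgeR adjusted p = 8.05e-06). Its relative Flrt3 rose 1.27-fold, from 61.8 ± 0.93 to 78.7 ± 5.76 CPM (adjusted p = 0.00793). Fgfbp3, a secreted carrier of FGFs, fell from 82.3 ± 1.34 to 57.9 ± 8.63 CPM (adjusted p = 0.00940), and stands in the astrocyte list too. Of the 8 tested genes of this list 1 rose and 2 fell, 37.5% called against 24.0% of all genes. The other 5 did not pass, among them the receptor genes Fgfr4 at 2.49 ± 0.12 and 2.43 ± 0.26 CPM and Fgfrl1 at 11.96 ± 1.55 and 13.5 ± 0.92 CPM.

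Enzymes of heparan sulfate, the coreceptor chain, were split, with 3 of 15 higher and 5 lower (53.3% called, against 24.0% of all genes). Hs6st2, which adds sulfate to the chain, fell from 81.1, 76.1 and 75.4 CPM to 25.4, 22.7 and 26.2 CPM (log2 fold change −1.65 ± 0.07, edgeR adjusted p = 4.56e-06). Sulf2, which removes such sulfate at the cell surface, fell from 59.3 ± 3.75 to 26.4 ± 0.61 CPM (adjusted p = 1.74e-05), and Hs6st3 from 5.68 ± 0.75 to 2.93 ± 0.39 CPM. Ndst3, a sulfotransferase that acts earlier on the chain, rose from 40.3 ± 1.27 to 71.3 ± 0.14 CPM (adjusted p = 3.72e-05). All 3 genes that rose encode enzymes that add sulfate. Besides Ndst3 these were Ndst2, from 24.1 ± 0.46 to 29.7 ± 0.34 CPM, and Hs2st1, from 116.0 ± 3.38 to 135.3 ± 1.76 CPM, both named after their values were seen (edgeR adjusted p = 0.0158 and 0.0116). Ndst2 lost the call without wild type replicate 2 or mutant replicate 1 or 2 (adjusted p up to 0.0577). Sulf1, the other gene here that removes sulfate, was at 2.94 ± 2.11 and 1.72 ± 0.26 CPM and did not pass. Genes that add sulfate thus went both ways, and the chains were not measured.

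Of 20 genes for the adaptors and kinases that carry the signal inside the cell, 2 rose and 3 fell, 25% against 24.0% of all genes tested, so the list stood at the background. The adaptor genes Gab2 and Gab1 rose 1.39-fold and 1.28-fold, to 65.3 ± 0.98 and 73.4 ± 2.02 CPM. Frs3, an adaptor that docks on FGF receptors, fell from 18.9 ± 1.88 to 12.8 ± 1.35 CPM, and the ERK-activating kinase gene Map2k1 from 43.2 ± 5.02 to 31.1 ± 1.76 CPM (edgeR adjusted p = 0.00983 and 0.01). Among intracellular FGF homologues, which bind sodium channels and not FGF receptors, 1 of 4 fell (25%, also at the background), Fgf11, from 65.3 ± 2.70 to 51.9 ± 1.45 CPM.

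Of 7 other brakes of the cascade that were tested, 1 rose and 1 fell. This share of 28.6% called was near the 24.0% of all genes. The groups did not overlap for any of the 7, however, against 41.9% of all genes tested, and the median log2 fold change was −0.23. Dusp4, a nuclear ERK phosphatase, rose from 54.5, 58.3 and 68.0 CPM in wild type to 149, 157 and 154 CPM in the mutant. The groups were far apart, with a log2 fold change of 1.34 ± 0.10 (edgeR adjusted p = 1.97e-05), opposite in sign to that of Dusp6. Spred2, a relative of the Sproutys, fell from 76.0 ± 1.04 to 60.7 ± 1.151 CPM (adjusted p = 0.00356). The other 5 did not pass. Among other ETS factor genes 2 of 10 fell, 20% against the same 24.0%: Etv1, the third PEA3 group gene, from 35.5, 34.8 and 70.6 to 10.7, 11.3 and 11.7 CPM, with wild type replicate 3 apart from its fellows, and Ets2 from 23.3 ± 1.65 to 17.9 ± 1.01 CPM. The call of Ets2 was lost without wild type replicate 3 or mutant replicate 1 or 2 (edgeR adjusted p up to 0.0769).

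Immediate early and general ERK output genes, which other receptors and neuronal activity also drive, had 7 of 16 lower and 2 higher. The share called was 56.2%, against 24.0% of all genes tested. Fosl2, an AP-1 subunit, fell from 32.0 ± 7.49 to 2.42 ± 0.68 CPM and Egr3, a zinc finger factor, from 4.43 ± 0.19 to 0.624 ± 0.113 CPM (edgeR adjusted p = 2.67e-05 and 5.65e-05). Npas4, a factor induced by neuronal activity, fell from 15.5 ± 2.90 to 3.70 ± 0.14 CPM. Jun, another AP-1 subunit, rose from 75.6 ± 4.71 to 153.2 ± 11.6 CPM (adjusted p = 4.53e-05). The median of this list was −0.43 on the log2 scale, against 0.0028 over all genes. Of 6 neuron markers 3 fell and 1 rose beside it, 66.7% called against 24.0% of all genes. Their summed level was 4778 to 5556 CPM in wild type and 4182 to 4401 CPM in the mutant, with none at 0 in all libraries. The part of neuron markers in the median of this list was not tested.

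**Figure D5:**
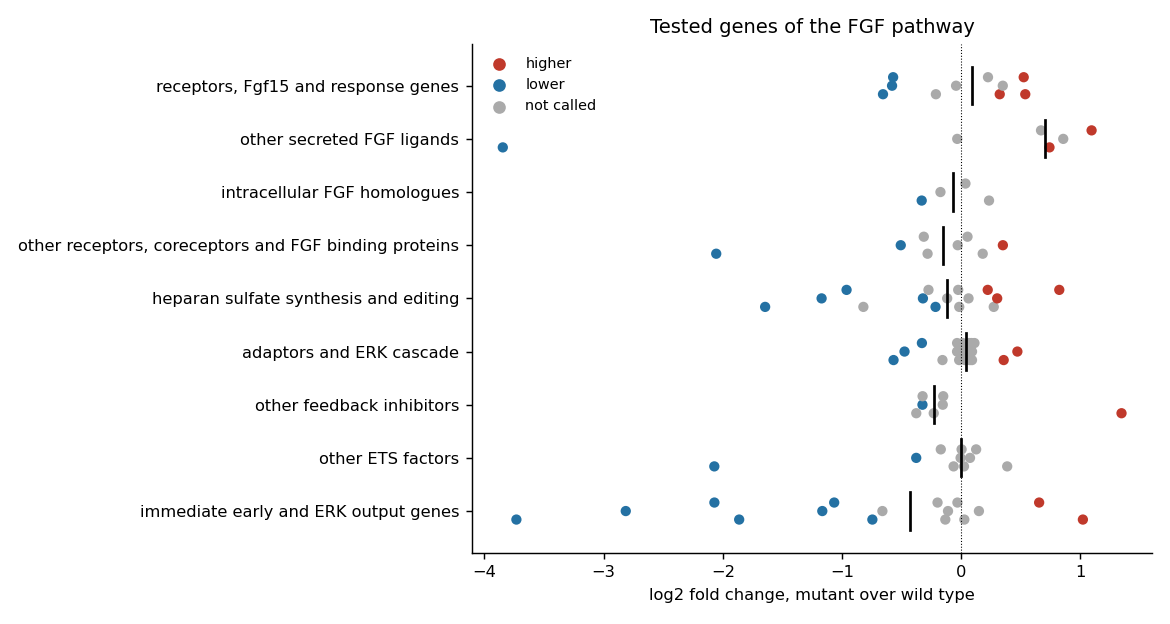
Log2 fold change, mutant over wild type (edgeR, 3 libraries per group), of every tested gene in the 8 other FGF pathway lists and of the 10 genes above them. Red genes rose, blue genes fell, grey did not pass, and black bars are list medians, from −0.43 for immediate early and ERK output genes to 0.70 for secreted ligands.

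Genes with the profile most like those of Spry4 and Dusp6, the members with the largest changes, were found by the distance between centred log2 CPM profiles over the 6 libraries. The nearest to Dusp6 were Entpd7 at a distance of 0.0898, Zscan22 at 0.119 and Syt16 at 0.124. The nearest to Spry4 were Zic1 at 0.209, Cdkl1 at 0.212 and Chchd10 at 0.222. The measure is a description over 6 libraries in 2 groups.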

How the data were processed

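The authors deposited raw read counts per gene, FPKM values and a p-value per gene in 1 table, per the file headers. HISAT2 2.0.4, StringTie 1.3.0, edgeR, GRCm38.p4 and mm10 are named, per the submitters' processing notes, with no role. Not given in the sources used here: counter, annotation release and strand setting. Deposited counts divided by the library total matched the authors' FPKM up to 1 factor per gene in 11418 of 11418 genes checked (tolerance 1e-04).

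Columns were assigned by the library names in the labels. Of the gene IDs 99.3% were found in GENCODE M21. Counts were fitted with edgeR 4.0.16 in R 4.3.3 (filterByExpr, TMM, glmQLFit, glmQLFTest, two-sided, Benjamini-Hochberg, threshold 0.05). Intervals come from limma 3.58.1, run on log2 CPM values (prior count 0.5). Each SE of a log2 fold change is that of the difference of group means of log2 CPM. Every pair of replicates differed by more than counting noise (chi-square per degree of freedom 7.15 to 14.3). Alternatives were RLE scaling, no filter, DESeq2 1.42.0, the replicate number as a block, each library left out, adjusted p below 0.01 and a 2-fold minimum. Counts were also simulated for 15326 genes, with 50 genes changed at each of 1.4-fold, 2-fold, 4-fold and 8-fold. There, 32%, 82%, 98% and 94% of these changes were recovered. Far fewer genes changed in the simulation than were called here, which makes the Benjamini-Hochberg cut-off stricter. The shares therefore do not give the recovery in these data, where changes of the size seen can still be missed.

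The members and lists were chosen with earlier results of these data known. Named were the members, Dlx1, Dlx2, up to 4 called genes per pathway list by adjusted p, ligands and receptors, markers where needed, and the 3 nearest profiles of 2 members.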

Additional observations from a re-analysis of the deposited data

How the results depend on the processing

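Directions and calls of Fgfr2, Dusp6, Dlx1 and Dlx2 held in all 10 alternative fits. Fgfr1, which did not pass, changed sign without mutant replicate 2 (log2 fold change 0.00287; lowest −0.118, without mutant replicate 3), and the cause was not tested. Leaving out 1 library at a time gave 1 to 3 members higher and 1 to 3 lower, 7 to 11 and 19 to 22 other pathway genes, and 1211 to 1626 and 1416 to 1956 genes in all; fewer samples enter these fits. An adjusted p below 0.01 left 1 member higher (Fgfr2) and 1 lower (Dusp6), 6 pathway genes higher and 16 lower, and 875 and 1116 genes in all. A 2-fold minimum with edgeR left 0 members in either direction, 3 and 11 pathway genes, and 436 and 619 genes in all.

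The replicate number as a block left 2 members higher (Fgfr2 and Fgfr3) and 1 lower (Dusp6). Over all genes it left 1223 higher and 1458 lower, against 1715 and 1958 without the block. Etv4, Spry4 and Spry2 had edgeR adjusted p of 0.102, 0.0713 and 0.0516 with the block. Of the other pathway genes, 8 were higher and 20 lower with it, and Fgf9, Fgf2 and Ndst2 did not pass (0.0513, 0.107 and 0.0561). Same-numbered libraries did not deviate together (r −0.178, 0.0387 and −0.178 across genes). Differently numbered libraries had r from −0.123 to 0.25, so these values cannot tell whether the numbers pair the samples.

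Relative to proliferation genes in place of radial glia markers, the difference was −0.17 for Fgfr1, 0.40 for Fgfr2, 0.40 for Fgfr3, −0.67 for Etv4, −0.35 for Etv5, 0.10 for Spry1, −0.75 for Spry4 and −0.71 for Dusp6. It reversed to 0.20 for Spry2. The reference itself differs by construction. With FPKM in place of CPM these ratios moved by less than 1 SD. Depth limits Fgf15 most, with 21 and 30 reads per group.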
